A study of Mus musculus with 8 samples.

Results

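*Il12a*, *Ifng* and *Il2* are 3 cytokine genes that link antigen-presenting cells to T cells and natural killer (NK) cells, and they were chosen by name from the 84 pathway genes of a quantitative PCR plate for Toll-like receptor (TLR) signalling. All 3 were found on the plate and have a value in every column of the deposited tables. The plate was run on RNA of whole mouse spleen after 7 days of R848, also called resiquimod, which activates the RNA-sensing receptor TLR7, at 1 mg per kg per day, or of PBS (Mock). The mice given R848 were labelled TLR7-/-, IFNAR-/- (lacking the type I interferon receptor) or C57BL/6 wild type, and the same 3 strains were given Mock. Each of the 8 samples is RNA pooled from 3 mice. TLR7-/- and IFNAR-/- spleens were sampled once per treatment, and wild-type spleens in 2 experiments per treatment that the tables give only as their mean. The age and sex of the mice and the genetic background of the deficient strains are not given in the sources used here.

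*Il12a* encodes the alpha chain of interleukin-12, which dendritic cells and macrophages secrete after a Toll-like receptor is engaged. Interleukin-12 acts on T cells and NK cells and drives them to make interferon gamma, the product of *Ifng*, which in turn activates macrophages. *Il2* encodes interleukin-2, a growth factor that T cells make soon after activation through their antigen receptor and co-stimulation. Interleukin-10, a cytokine of many leukocytes, restrains the production of interleukin-12 and interferon gamma.

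The sequence just before the start of each gene is shown because *Il12a* and *Il2* both stood lower with R848 in wild-type spleen while *Ifng* did not. RefSeq promoter windows of 300 bases (250 before the start and 50 after it, build GRCm38.p6) matched all 3 genes. They lie at chr3:68691174-68691473 on the plus strand for *Il12a*, at chr10:118440796-118441095 on the plus strand for *Ifng* and at chr3:37125905-37126204 on the minus strand for *Il2*. Capitals mark letters that match any of 5 short motifs searched on both strands.

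Il12a: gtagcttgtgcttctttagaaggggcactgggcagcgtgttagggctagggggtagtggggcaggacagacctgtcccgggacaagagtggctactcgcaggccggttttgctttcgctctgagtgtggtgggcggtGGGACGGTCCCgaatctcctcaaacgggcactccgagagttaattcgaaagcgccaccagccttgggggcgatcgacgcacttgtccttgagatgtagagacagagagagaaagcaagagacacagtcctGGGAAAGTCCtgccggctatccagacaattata

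Ifng: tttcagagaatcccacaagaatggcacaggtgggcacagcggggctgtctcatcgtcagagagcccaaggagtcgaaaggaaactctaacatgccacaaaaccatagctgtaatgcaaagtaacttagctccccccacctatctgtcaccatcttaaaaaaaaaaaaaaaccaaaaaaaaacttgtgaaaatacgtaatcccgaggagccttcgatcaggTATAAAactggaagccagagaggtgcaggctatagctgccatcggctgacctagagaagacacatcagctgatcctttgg

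Il2: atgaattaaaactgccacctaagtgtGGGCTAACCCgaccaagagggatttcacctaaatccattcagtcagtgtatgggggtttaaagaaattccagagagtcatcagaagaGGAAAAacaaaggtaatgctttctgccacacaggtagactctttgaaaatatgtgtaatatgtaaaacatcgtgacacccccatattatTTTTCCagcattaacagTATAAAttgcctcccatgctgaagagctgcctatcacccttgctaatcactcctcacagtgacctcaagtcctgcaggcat

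The NF-kB-like motif was GGG and CC with any 5 bases between them, and the interferon-response-like motif was 2 GAAA blocks with any 2 bases between them. The AP-1-like motif was TGA and TCA with any base between them, the NFAT-like motif was GGAAAA, and TATAAA was searched as the core promoter element. This last motif was found in *Ifng*, its first base at -30 from the start, and in *Il2*, at -31, but not in *Il12a*. It occurs in 13.6% of all 32851 promoter windows. The *Il12a* window held GGGACGGTCC at -113, which overlaps a match on the opposite strand, and GGGAAAGTCC at 18, after the start. *Il2* held 1 NF-kB-like stretch, matched on both strands, at -224 and NFAT-like matches at -137 and, on the opposite strand, at -48. NF-kB-like letters occur in 50.8% of windows and NFAT-like letters in 23.4%. No window of the 3 held the AP-1-like or interferon-response-like letters, which occur in 7.81% and 3.44% of windows. A second *Il12a* start, at chr3:68690394-68690693, held none of the 5 motifs.

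Every level is a delta-Ct, the cycle at which a gene crosses the detection threshold minus the mean cycle of the reference genes *Hprt1*, *Hsp90ab1* and *Gapdh*. A lower delta-Ct is a higher level, and 1 cycle is a 2-fold difference. Readings above cycle 35 were set to 35 by the authors, so for a gene at the cap the true level is this low or lower. No value has a replicate error, no difference was tested, and directions are those of the pooled samples alone. A difference was counted from 2-fold. Levels of different genes are not compared, since the efficiency of each assay is not given.

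The columns differed in how far down they could see. The cap, seen as the highest delta-Ct and shared by several genes, lay at 15.63 with R848 and 15.10 with Mock in TLR7-/- spleen, 14.93 and 12.43 in IFNAR-/- spleen, and 13.15 with Mock in wild-type spleen. With R848 in wild-type spleen no cap was seen and the highest value was 16.67. No Ct reading was used here, and the mean reference Ct was inferred as 35 minus the cap, which gives 19.37 and 19.90, 20.07 and 22.57, and at most 18.33 and 21.85 in the same columns. *Tlr7* itself was read in every column, with a delta-Ct of 9.33 with R848 and 9.20 with Mock in the spleens labelled TLR7-/-, 8.23 and 10.43 in IFNAR-/- spleen, and 9.47 and 12 in wild-type spleen. Where its primers lie with respect to the knockout deletion is not given, so the reading checks no label. The plate carries no interferon receptor gene and no lineage marker of T or NK cells. Of 3 B cell-associated genes of a spleen, *Cd86* and *Ly86* were read below the cap in every column, and *Btk* was at the cap in all 4 columns of the deficient strains.

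**Figure D1:**
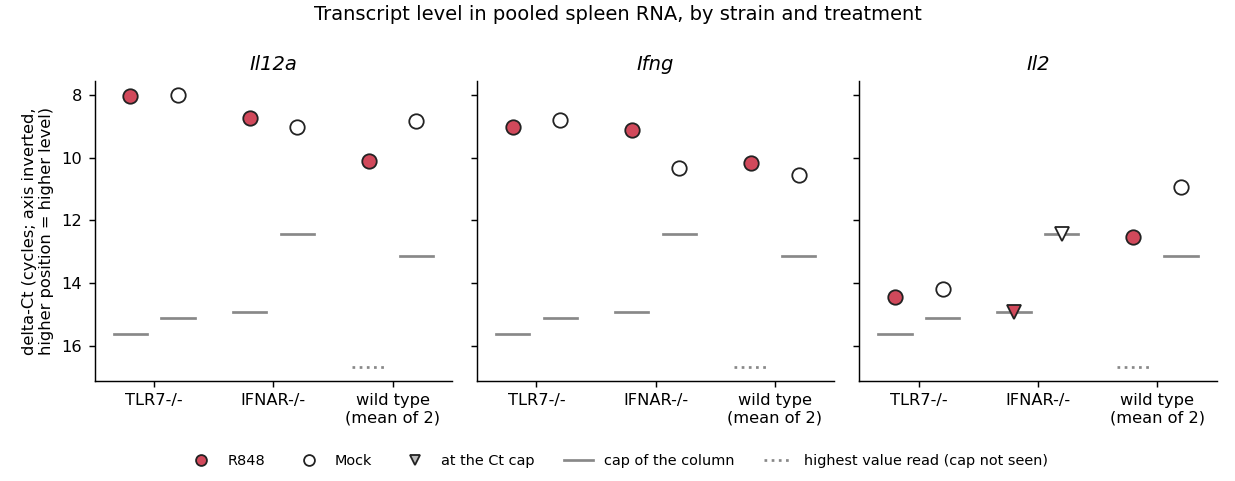
Delta-Ct of *Il12a*, *Ifng* and *Il2* (cycles, axis inverted so that a higher level lies higher) in pooled spleen RNA by strain, with R848 filled and Mock open, 1 point per column of the tables. Grey lines give the cap of each column, dotted where only the highest value read is known; *Il2* lies on it in both IFNAR-/- columns, and *Il12a* is lowest in wild-type spleen with R848.

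*Il12a*, which encodes 1 chain of interleukin-12, was lower with R848 than with Mock in wild-type spleen and stood within 2-fold of its Mock level in the deficient strains. Which cells of the spleen carried its RNA was not tested. Its delta-Ct was 8.03 with R848 and 8.0 with Mock in TLR7-/- spleen. It was 8.73 with R848 and 9.03 with Mock in IFNAR-/- spleen. It was 10.12 with R848 and 8.85 with Mock in wild-type spleen, the mean of 2 experiments each. The wild-type R848 column was the lowest of the 6, by 1.09 cycles below the next, and the other 5 columns spanned 8.0 to 9.03. In whole spleen, fewer cells of a type and less RNA per cell cannot be told apart.

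The log2 difference of R848 over Mock was -0.03 for *Il12a* in TLR7-/- spleen, 0.30 in IFNAR-/- spleen and -1.27 in wild-type spleen, the last 2.41-fold lower. In wild type it ranked 70 from the highest among 79 genes of known direction, and 13.1% of the 84 genes were at least 2-fold lower. Each difference was recomputed with 5 other scalings, namely *Hprt1*, *Hsp90ab1* or *Gapdh* alone, all 5 housekeeping genes, and the median of the 84 log2 differences. Over these 5 the wild-type value ran from -1.77 to -0.75 and passed 2-fold in 4, the exception being *Hsp90ab1* alone. Over the same 5 the value in TLR7-/- spleen ran from -0.20 to 0.10 and that in IFNAR-/- spleen from -0.95 to 0.70. The -0.95 came from the median of the 84, which takes in 9 IFNAR-/- genes at the cap in both columns. *Ube2v1*, ranked 38 of the 75 genes of known direction and so their middle, differed by 1.5, against 1.25 for the 84. The low end would thus lie lower without the capped genes. A sixth scaling, chosen after seeing the data, centred each column on its own median delta-Ct and gave *Il12a* log2 differences of -0.25 in TLR7-/-, -1.75 in IFNAR-/- and -2.5 in wild-type spleen. The direction in the deficient strains thus depended on the scaling, and under the sixth *Il12a* was past 2-fold lower in IFNAR-/- spleen too. By that inference the reference genes of wild type came up at least 3.52 cycles later with Mock than with R848, and the part this has in the differences was not tested.

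The log2 response of *Il12a* was higher by 1.24 in TLR7-/- spleen than in wild type, and 9.33% of 75 genes of known direction were higher by at least 1 log2 unit. With *Hsp90ab1* alone as reference this difference was 0.85, short of 1 log2 unit. The response was higher by 1.57 in IFNAR-/- spleen than in wild type, where 44.9% of 69 genes were higher by at least 1 log2 unit and the median gene by 0.82. After centring on the median gene it was 0.73. Both differences rest on the same wild-type columns. The gap lay in the R848 columns: with R848, *Il12a* was 4.26-fold higher in TLR7-/- than in wild-type spleen and 2.62-fold higher in IFNAR-/- than in wild-type spleen, among 29.8% of genes that were 2-fold higher in each comparison. With Mock the log2 differences from wild type were 0.85 in TLR7-/- spleen and -0.18 in IFNAR-/- spleen, both within 2-fold, and each changed sign under at least 1 scaling.

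*Ifng*, the effector cytokine of T and NK cells, was 2-fold higher with R848 in IFNAR-/- spleen and within 2-fold of its Mock level in the other two strains. Its delta-Ct was 9.03 with R848 and 8.80 with Mock in TLR7-/- spleen. It was 9.13 with R848 and 10.33 with Mock in IFNAR-/- spleen, and 10.17 with R848 and 10.55 with Mock in wild-type spleen. The 6 columns formed a higher set of 3, both TLR7-/- columns and IFNAR-/- with R848, within 0.33 cycles, and a lower set of 3 that began 1.04 cycles further down.

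The log2 difference of R848 over Mock for *Ifng* was -0.23 in TLR7-/- spleen, 1.20 in IFNAR-/- spleen and 0.38 in wild-type spleen. The IFNAR-/- value is 2.30-fold higher with R848, in a pair where 53.6% of the 84 genes were at least 2-fold higher and the median gene differed by 1.25. *Ifng* ranked 43 among 75 genes there, and 43 among 79 in wild type, where the median gene differed by 0.41 and 38.1% were 2-fold higher. In both strains *Ifng* thus moved about as far as the middle of the plate. After centring on the median gene its log2 difference was -0.05 in IFNAR-/- and -0.03 in wild-type spleen, and under the sixth scaling it was -0.85 in both. The -0.05 would lie lower without the 9 IFNAR-/- genes at the cap in both columns. With the 5-gene reference the wild-type value was -0.12, and with *Hprt1* alone or that reference the IFNAR-/- value was 0.80 and 0.58, short of 2-fold. That reference adds *Actb* and *Gusb*, which themselves differed by 1.6 and 1.5 in IFNAR-/- and by 0.63 and 1.88 in wild-type spleen. The inferred reference Ct of IFNAR-/- spleen was 2.5 cycles later with Mock than with R848. The part of the reference genes in the IFNAR-/- value of *Ifng* was not tested.

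The log2 response of *Ifng* differed by -0.61 in TLR7-/- minus wild-type spleen and by 0.82 in IFNAR-/- minus wild-type spleen, neither reaching 1 log2 unit. The median gene differed by -0.56 and 0.82 in those comparisons. Between the deficient strains the response was 1.43 higher in IFNAR-/- than in TLR7-/- spleen, equal to the median of 69 genes, of which 62.3% were higher by at least 1 log2 unit. By level, *Ifng* with R848 was 2.20-fold higher in TLR7-/- and 2.06-fold higher in IFNAR-/- than in wild-type spleen, and with Mock it was 3.36-fold higher in TLR7-/- than in wild-type spleen, beside 48.8% of genes 2-fold higher there. Relative to the median gene these 3 log2 differences from wild type were 0.75, 0.68 and 0.82, all within 2-fold. With Mock, IFNAR-/- and wild-type spleen differed by 0.22.

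*Il2*, the T-cell growth factor, was read latest of the 3 and was the one most often beyond detection. Its delta-Ct was 14.43 with R848 and 14.20 with Mock in TLR7-/- spleen, which is 1.20 and 0.90 cycles short of the cap. It was at the cap with R848 (14.93) and with Mock (12.43) in IFNAR-/- spleen. It was 12.52 with R848 and 10.95 with Mock in wild-type spleen. Among columns where *Il2* was read, both wild-type columns were higher than both TLR7-/- columns. The IFNAR-/- pair gives no direction for *Il2*, and the difference between its caps is not a response.

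The log2 difference of R848 over Mock for *Il2* was -0.23 in TLR7-/- spleen, from -0.40 to -0.10 over the 5 scalings and -0.45 under the sixth. It was -1.57 in wild-type spleen, 2.97-fold lower with R848, and at least 2-fold lower in each of the 5 scalings, from -2.07 to -1.05, and under the sixth, at -2.8. Tied with *Nfkbia* and *Btk*, it ranked 75 from the highest among 79 genes. With *Il12a*, 2 of the 3 cytokines were thus 2-fold lower in wild type, against 13.1% of the plate, and none of 3 was 2-fold away in TLR7-/- spleen, against 8.33% of the plate. A wild-type mean can hide an experiment at the cap, and the *Il2* mean with Mock lay 2.20 cycles short of it.

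By strain, *Il2* was lower in both deficient strains than in wild type. *Ifng* was 2-fold higher there except in IFNAR-/- spleen with Mock, but within 2-fold relative to the median gene. With Mock *Il2* was 9.51-fold lower in TLR7-/- than in wild-type spleen, where 4.76% of genes were 2-fold lower and the median gene was 0.93 higher on the log2 scale. With Mock it was at least 2.79-fold lower in IFNAR-/- than in wild-type spleen, where 31.0% of genes were 2-fold lower. With R848 it was 3.76-fold lower in TLR7-/- and at least 5.32-fold lower in IFNAR-/- than in wild-type spleen, against 14.3% and 15.5% of genes. These 4 differences kept their direction and stayed past 2-fold under the 5 scalings, and the sixth was not run on levels. Rescaling does not touch a fault of a single assay. *Btk*, at the cap in all deficient columns, had a delta-Ct of 5.67 with R848 and 4.10 with Mock in wild-type spleen. *Casp8* had 4.77 and 6.0 there, but 11.83 and 10.6 in TLR7-/- spleen. Strain and assay performance cannot be told apart here for *Il2*. The response of *Il2* was 1.34 higher on the log2 scale in TLR7-/- than in wild-type spleen, where 9.33% of genes were higher by at least 1 log2 unit, and it was 0.95 with *Hsp90ab1* alone. A comparison of responses with IFNAR-/- spleen could not be made.

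**Figure D2:**
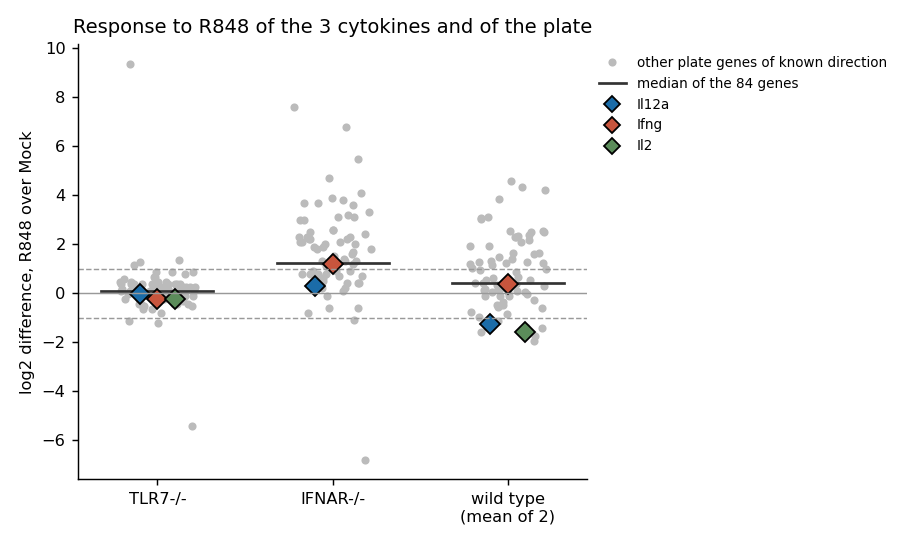
Log2 difference of R848 over Mock (vertical axis) by strain for *Il12a*, *Ifng* and *Il2* (diamonds) and for the other plate genes of known direction (grey points), with the median of the 84 genes as a bar and 2-fold as dashed lines. *Ifng* lies on the median bar in IFNAR-/- and wild-type spleen, *Il12a* and *Il2* lie below -1 in wild type only among the 3 pairs drawn, and *Il2* has no point in IFNAR-/- spleen because both columns are at the cap.

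A ratio of 2 genes within a column does not depend on the reference genes, so its change between treatments was computed for each pair of cytokines. The ratio of *Ifng* to *Il2* was 3.86-fold higher with R848 than with Mock in wild-type spleen and did not differ in TLR7-/- spleen, where the log2 change was 0.00. The ratio of *Ifng* to *Il12a* had log2 changes of -0.20 in TLR7-/-, 0.90 in IFNAR-/- and 1.65 in wild-type spleen, the last 3.14-fold higher with R848. *Il12a* to *Il2* changed by 0.20 in TLR7-/- and 0.30 in wild-type spleen, both within 2-fold. In wild type *Ifng* thus stood higher with R848 relative to *Il12a* and *Il2*, while its own log2 difference lay -0.03 from the median gene. Such shifts were common on the plate, where 66.4% of 2926 pairs of genes changed their ratio at least 2-fold in wild type. That share was 62.4% of 2346 pairs in IFNAR-/- and 18.0% of 3003 pairs in TLR7-/- spleen.

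*Il10*, which encodes the restraining cytokine, shifted much further. Its delta-Ct was 6.63 with R848 and 6.40 with Mock in TLR7-/- spleen, 4.83 with R848 and at the cap of 12.43 with Mock in IFNAR-/- spleen, and 6.77 with R848 and 11 with Mock in wild-type spleen. The ratio of *Il10* to *Il12a* was at least 158-fold higher with R848 than with Mock in IFNAR-/- spleen and 45.3-fold higher in wild-type spleen, with a log2 change of -0.20 in TLR7-/- spleen. *Il10* to *Ifng* was at least 84.5-fold higher in IFNAR-/- and 14.4-fold higher in wild-type spleen, and 0.00 on the log2 scale in TLR7-/- spleen. *Il10* to *Il2* was 55.7-fold higher with R848 in wild-type spleen and again 0.00 on the log2 scale in TLR7-/- spleen. In TLR7-/- spleen *Il10*, *Ifng* and *Il2* each differed by -0.23, which is why their ratios did not move. An unmoved ratio is not one at the wild-type Mock level. With Mock, *Il10* in TLR7-/- spleen (6.40) was nearer wild type with R848 (6.77) than with Mock (11). *Il12a* (8.0) was nearer wild type with Mock (8.85) than with R848 (10.12). With Mock, 48.8% of genes were 2-fold higher in TLR7-/- than in wild-type spleen, and the reason was not tested.

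**Figure D3:**
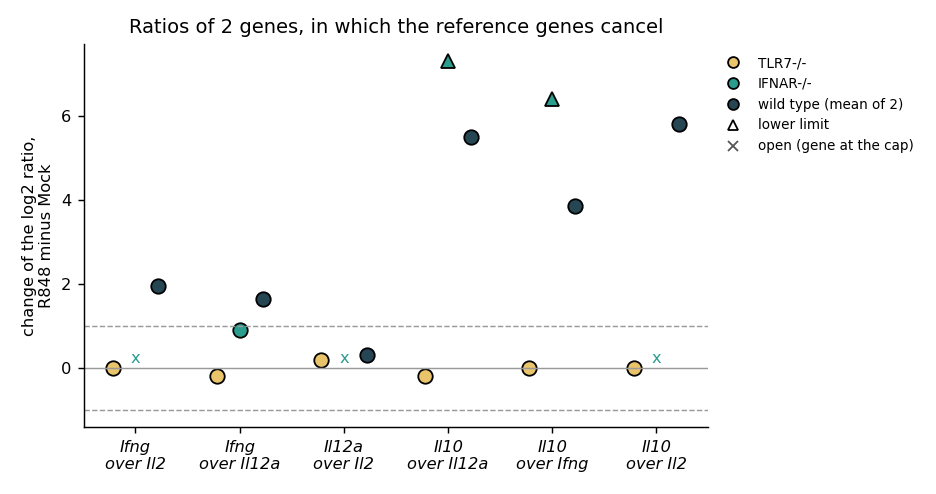
Change of the log2 ratio of 2 genes, R848 minus Mock (vertical axis), for 6 ratios in 3 strains, in which the reference genes cancel; triangles are lower limits and crosses mark ratios with *Il2* at the cap. TLR7-/- points lie between -0.20 and 0.20, and ratios of *Il10* to the 3 cytokines reach 3.85 to 5.80 in wild type.

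The genes whose pattern over the 6 columns was most like each cytokine were found by the root mean square difference of delta-Ct after each gene was centred on its own mean, among genes never at a cap. For *Ifng* the closest of 68 genes was *Il1b*, which encodes the inflammasome cytokine interleukin-1 beta. The difference was 0.08 cycles, against a median of 0.71 over the 68 genes. *Il1b* had delta-Ct values of 4.83 with R848 and 4.40 with Mock in TLR7-/- spleen, 4.83 and 5.93 in IFNAR-/- spleen, and 5.97 and 6.30 in wild-type spleen. Its distance from *Ifng* stayed between 4.2 and 4.4 cycles in all 6 columns. *Chuk*, an NF-kB-activating kinase, and *Tbk1*, a kinase upstream of interferon beta, followed at 0.31 cycles each.

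For *Il12a* the closest genes were *Nfkbia*, the inhibitor of NF-kB (0.22 cycles), *Irf3*, a transcription factor for interferon genes (0.28), and *Ripk2*, a kinase downstream of the NOD receptors (0.31), against a median of 0.90. *Nfkbia* had delta-Ct values of 1.33 with R848 and 0.90 with Mock in TLR7-/- spleen, 1.73 and 2.53 in IFNAR-/- spleen, and 3.32 and 1.75 in wild-type spleen. Like *Il12a*, it was lowest in wild-type spleen with R848. No gene came close to *Il2*, the nearest being *Hspd1*, a mitochondrial chaperone gene, at 1.09 cycles, and *Il2* was itself at the cap in 2 of the 6 columns. The Pearson correlations over the 6 columns were 0.99 for *Ifng* with *Il1b* and 0.96 for *Il12a* with *Nfkbia*. The columns share their reference genes and RNA input with every gene, and the values are given as a description.

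**Figure D4:**
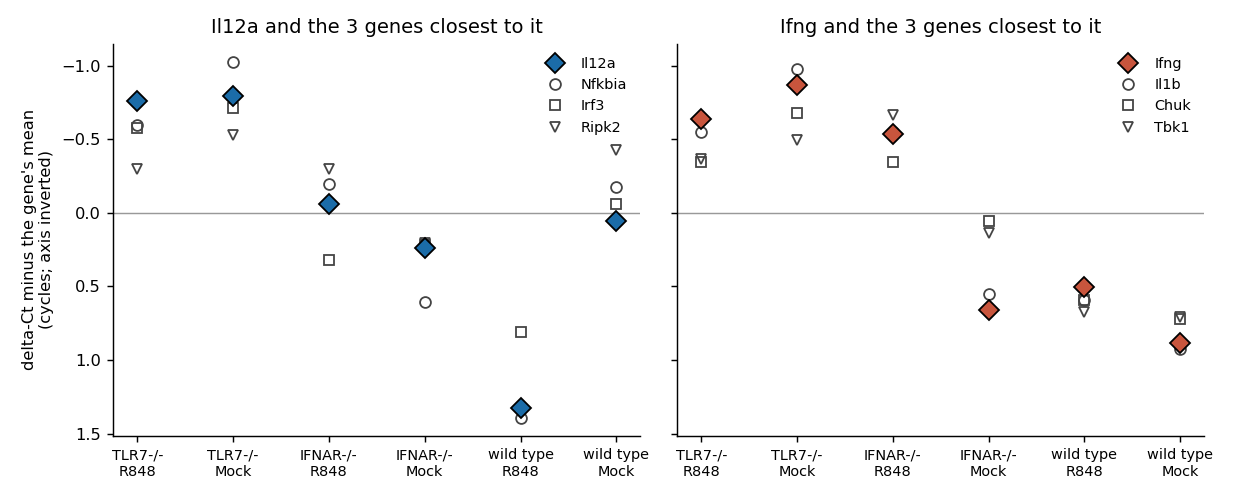
Delta-Ct minus the gene's own mean (cycles, axis inverted) in the 6 columns for *Il12a* (left) and *Ifng* (right), filled, and the 3 genes closest to each, open. *Il1b* tracks *Ifng* within 0.20 cycles over the columns, and *Nfkbia* drops with *Il12a* in wild-type spleen with R848.

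Genes that act upstream of the 3 cytokines were read beside them. Among TLR inputs to *Il12a*, namely *Tlr7*, *Tlr9*, the adaptor *Myd88* and the ubiquitin ligase *Traf6*, all 4 were 2-fold higher in IFNAR-/- and in wild-type spleen and none of 4 was 2-fold away in TLR7-/- spleen. The plate shares were 53.6% higher in IFNAR-/-, 38.1% higher in wild-type and 8.33% either way in TLR7-/- spleen. Their median log2 differences were 0.27 in TLR7-/-, 2.60 in IFNAR-/- and 2.5 in wild-type spleen, beside plate medians of 0.07, 1.25 and 0.41. After centring on the median gene 2 were 2-fold higher in IFNAR-/- and 3 in wild-type spleen. Among 6 transcription factors known to act on 1 or more of these cytokine genes, 5 were higher in IFNAR-/- spleen and 3 in wild-type spleen (*Nfkb1*, *Irf1* and *Jun*), and none of 6 in TLR7-/- spleen, against the same shares of 53.6% and 38.1%, the wild-type count being near its share. After centring, 3 of the 6 were 2-fold higher in both.

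*Rel*, the NF-kB subunit c-Rel that *Il12a* and *Il2* transcription needs, was within 2-fold in all 3 pairs. Its delta-Ct was 7.13 with R848 and 7.10 with Mock in TLR7-/- spleen, 8.33 and 9.13 in IFNAR-/- spleen, and 8.47 and 9.0 in wild-type spleen. The log2 differences were -0.03, 0.80 and 0.53 in the same order, the wild-type value close to the plate median of 0.41. *Irf1*, a factor that acts on *Il12a* and is itself induced by interferon gamma, was 2.64-fold higher with R848 in IFNAR-/- and 3.81-fold higher in wild-type spleen. Its log2 difference lay 0.15 above the median gene in IFNAR-/- spleen, near the middle of the plate, and 1.52 above it in wild type. *Fos*, a subunit of AP-1, had log2 differences of -0.53 in TLR7-/-, 2.30 in IFNAR-/- and 0.08 in wild-type spleen.

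Of *Lta*, *Csf2* and *Tnf*, cytokine genes that T and NK cells also use, 2 were 2-fold lower in wild-type spleen, against 13.1% of the plate, and none of 3 in the deficient strains. *Tnf* had a log2 difference of 0.43 in wild-type spleen and was 14.9-fold higher in IFNAR-/- spleen. *Lta* and *Csf2* had a log2 difference of -1.37 each in wild type, near those of *Il12a* and *Il2*, and neither reached 2-fold with *Hsp90ab1* alone as reference. *Lta* had a delta-Ct of 7.87 with R848 and 6.50 with Mock there, well inside the range of detection. *Csf2* had 13.67 with R848 and 12.30 with Mock, the last 0.85 cycles short of the cap. Of the co-stimulatory ligands on antigen-presenting cells, *Cd80* differed by -0.53 in TLR7-/-, 0.40 in IFNAR-/- and -1.97 in wild-type spleen, and *Cd86* by -0.63, 0.70 and -0.97.

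Genes that interferon gamma can induce spread more widely than *Ifng* itself. *Cxcl10*, a chemokine for activated T cells, had delta-Ct values of 1.53 with R848 and 1.60 with Mock in TLR7-/- spleen, 0.03 and 5.53 in IFNAR-/- spleen, and 2.27 and 2.00 in wild-type spleen. It was 45.3-fold higher with R848 in IFNAR-/- spleen, where *Ifng* was 2.30-fold higher, and its wild-type log2 difference of -0.27 became 0.25 with *Hsp90ab1* alone. *Eif2ak2*, the interferon-inducible kinase PKR, was 26.0-fold higher in IFNAR-/- and 14.2-fold higher in wild-type spleen. Type I interferon can induce these genes too, and which signal acted on them in any strain was not tested. Among genes that restrain *Il12a* and *Ifng*, *Il10* and *Tnfaip3*, an inhibitor of NF-kB, were 2-fold higher in IFNAR-/- and wild-type spleen, while *Nfkbia* was 2.97-fold lower in wild type with a log2 difference of 0.80 in IFNAR-/- spleen.

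**Figure D5:**
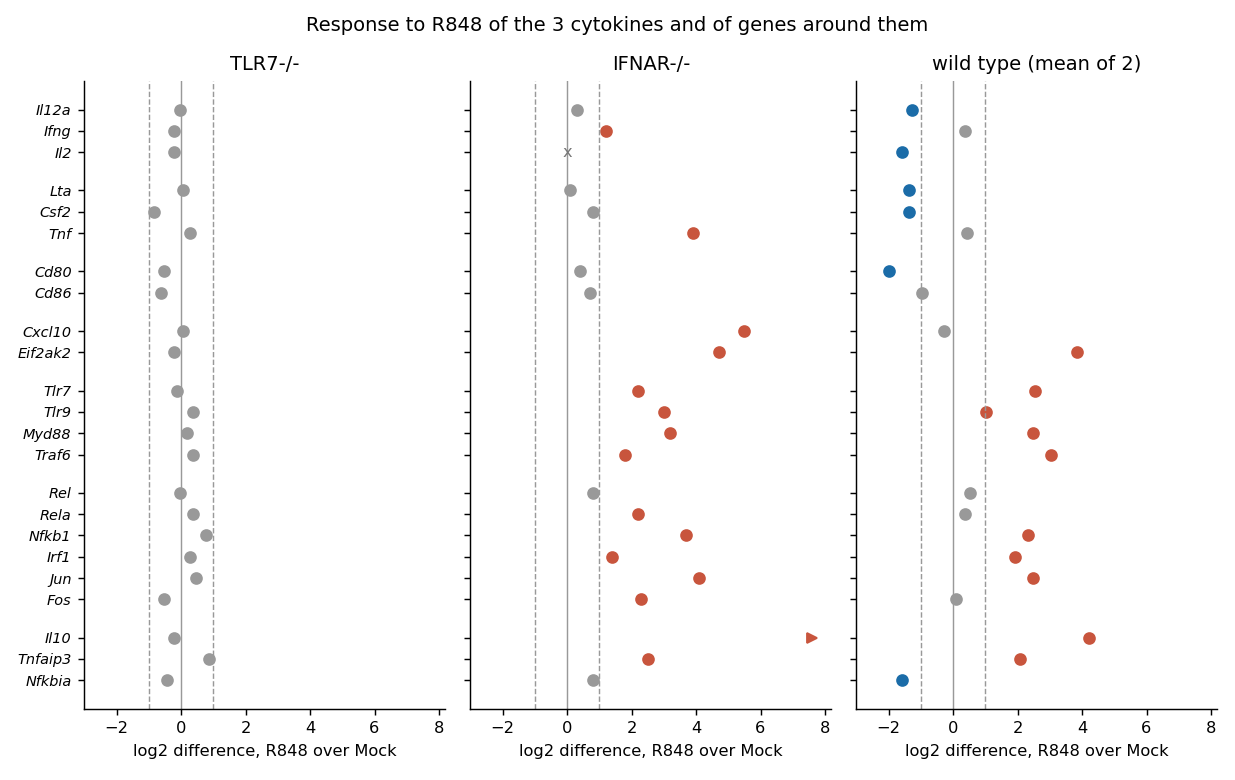
Log2 difference of R848 over Mock (horizontal axis) for *Il12a*, *Ifng*, *Il2* and 20 genes around them in 3 strains; red is at least 2-fold higher, blue at least 2-fold lower, grey within 2-fold, a triangle a lower limit and a cross an open direction. From the top the blocks are the 3 cytokines, other T and NK cell products, co-stimulation, interferon targets (*Irf1* is drawn among the inducers), TLR inputs, transcription inducers and restraint, and TLR7-/- points shown all lie within 2-fold.

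Genes of other cell types were summed beside these results. The summed level of 7 monocyte, macrophage and neutrophil genes, as a percentage of the mean reference level, was 49.3 with R848 and 58.4 with Mock in TLR7-/- spleen, 63.2 and 35.5 in IFNAR-/- spleen, and 38.6 and 41.2 in wild-type spleen. Of the 7, 1 was 2-fold higher in TLR7-/- spleen, against 8.33% of the plate either way. In IFNAR-/- spleen 4 were higher and 1 lower, and in wild-type spleen 3 were higher and 1 lower. The higher counts were near the plate shares of 53.6% in IFNAR-/- and 38.1% in wild-type spleen. *Cd14* was both the higher gene in TLR7-/- (at least 9.37 on the log2 scale) and the lower gene in IFNAR-/- spleen (-6.80 or lower). *Ccl2*, also in the first 4 wells, had -5.43 and at least 6.80 there. Whether these wells read properly was not tested. The summed level of the 3 B cell-associated genes was 19.3 with R848 and 23.4 with Mock, 19.2 and 12.3, and 17.1 and 27.8 in the same strains. Of these genes *Btk* was 2-fold lower in wild type, as were 13.1% of the plate, and gave no direction in the deficient strains. There the sum rests on *Cd86* and *Ly86*. None of the 3 was checked as specific to B cells, and *Cd86* is also listed here as a ligand on antigen-presenting cells. The summed level of 3 genes listed as stromal, *Il1r1*, *Il6ra* and *Ppara*, was 4.55 and 4.82, 2.00 and 1.26, and 4.13 and 5.83. Most of it came from *Il6ra*, with a delta-Ct of 4.72 with R848 and 4.15 with Mock in wild-type spleen. The sum thus follows that gene, and none of the 3 was checked as specific to stroma. *Il1r1* was 2-fold higher in IFNAR-/- spleen, against 53.6% of the plate. *Ppara*, at the cap with Mock, was 2-fold higher in wild-type spleen, against 38.1%. *Ifng*, *Il2* and *Lta* together summed to 2.08 with R848 and 2.02 with Mock in TLR7-/- spleen, 0.762 and 0.637 in IFNAR-/- spleen, and 0.531 and 1.22 in wild-type spleen. Genes at the cap enter these sums at their upper limit. No marker could be listed at a level of 0, because a blank Ct was set to 35. *Btk*, *Cd14*, *Ppara* and *Il2* were at the cap in at least 1 column, and the part of these cell types in the results was not tested.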

How the data were processed

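Spleen RNA of 8 samples in 6 groups, each pooled from 3 mice, was read on a TLR pathway PCR plate, per the labels' protocols. The deposited tables, 1 per strain, hold delta-Ct, a log2 quantity counted in cycles, made by the authors against *Hprt1*, *Hsp90ab1* and *Gapdh*, per the file headers. The authors' deposited ratio (fold) of the treatments was also used, and 267 of 267 such values were recomputed from delta-Ct within 0.01 cycles or 0.01 of a fold. Per the series' design text, Ct above 35 or blank was set to 35, and wild-type values summarise 2 experiments, so no SD exists and a test planned only if separate experiments were present was not run. All 6 delta-Ct columns were used, and 6 columns of 2 to the minus delta-Ct were not. Strain came from the table's name and treatment from the column's name.

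The log2 difference subtracted the R848 delta-Ct from the Mock delta-Ct, and for strains that of the deficient strain from that of wild type. A value shared by at least 3 genes at the top of a column was taken as its cap, and Ct was inferred as delta-Ct plus 35 minus the cap. Where the lower column was at its cap the fold is a lower limit ("at least"), and in other cases at a cap no direction was given. Differences were called from 2-fold or 1 log2 unit. Likeness was the root mean square difference of centred delta-Ct, with the 3 nearest genes named. Named genes were the 3 cytokines, the housekeeping genes, *Il10*, *Cxcl10*, *Irf1*, *Rel*, *Lta*, members of the gene lists and those nearest genes. The members and lists were chosen with earlier results of these data known, and no list was tested. Alternatives were other reference genes, median-gene centring and thresholds of 1.5-fold and 3-fold. Calling was tried on 100 simulated plates, capped at cycle 35 in both columns and with no shift of the whole plate. They therefore do not cover the wild-type R848 column, where no cap was seen, or the choice of reference. Python 3.11.15, numpy 2.4.6 and pandas 2.3.3 were used. Since no repeat readings were used here, no error of a reading can be given, and the Ct cap is the only limit of detection.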

Additional observations from a re-analysis of the deposited data

Results flagged for a closer look

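The response of *Ifng* ran in opposite directions in TLR7-/- and wild-type spleen, with log2 differences of R848 over Mock of -0.23 and 0.38, a gap of -0.61. It also ran in opposite directions in IFNAR-/- and TLR7-/- spleen, at 1.20 and -0.23, a gap of 1.43, which equals the gap of the median gene. The response of *Il12a* was 0.30 in IFNAR-/- and -1.27 in wild-type spleen, a gap of 1.57, and 0.30 in IFNAR-/- against -0.03 in TLR7-/- spleen, a gap of 0.33. None of these 4 differences was tested, each deficient strain is 1 pooled sample per treatment, and the wild-type value is a mean whose 2 experiments may not share its direction. The signs of *Il12a* in both deficient strains and of *Ifng* in IFNAR-/- and wild-type spleen changed under at least 1 scaling. *Ifng* in TLR7-/- spleen stayed below 0 under the 5 scalings, from -0.40 to -0.10.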

How the results depend on the processing

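No paired analysis was possible because the wild-type experiments, which carry numbers in the labels, are given only as their mean; for the same reason no experiment could be left out in turn. Of 226 alternative settings over all results, 172 kept the direction and the side of the threshold or, for counts, stayed within 1.5 times. For cytokine differences and ratios, the settings of 1.5-fold and 3-fold leave the value as it was. Their direction could not change, so the 172 is no measure of stability. With *Hsp90ab1* alone, *Il12a* was -0.75 in wild type and 0.10 in TLR7-/- spleen. Its response was then 0.85 higher, that of *Il2* 0.95 higher and that of *Ifng* -1.0 in TLR7-/- minus wild type, and with Mock *Il12a* was 1.10 in TLR7-/- and 0.10 in IFNAR-/- minus wild type. With *Hprt1* alone, IFNAR-/- spleen had -0.10 for *Il12a* and 0.80 for *Ifng*, and the *Ifng* level with R848 was 0.80 in IFNAR-/- minus wild type. With *Gapdh* alone the *Ifng* response was 1.05 in IFNAR-/- minus wild type. With 5 housekeeping genes the values were -0.32 for *Il12a* and 0.58 for *Ifng* in IFNAR-/- spleen, -0.12 for *Ifng* in wild type and 0.06 for *Il12a* with Mock in IFNAR-/- minus wild type. The IFNAR-/- values after centring on the median gene would be lower without the 9 genes at the cap in both columns. After that centring *Il12a* and *Ifng* were -0.95 and -0.05 in IFNAR-/- spleen, and *Ifng* was -0.03 in wild type. Responses in IFNAR-/- minus wild type were then 0.73 for *Il12a* and -0.03 for *Ifng*. Levels minus wild type were 0.75 (TLR7-/-) and 0.68 (IFNAR-/-) for *Ifng* with R848, 0.82 for *Ifng* in TLR7-/- with Mock, and -0.08 (TLR7-/-) and 0.15 (IFNAR-/-) for *Il12a* with Mock.

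Chosen after seeing the data, centring each column on its own median gave *Il12a* -1.75 and *Ifng* -0.85 in IFNAR-/- and *Ifng* -0.85 in wild-type spleen. With the TLR7-/- Mock column as control, also chosen then, *Il12a* was -0.73 and *Ifng* -0.33 in IFNAR-/- spleen, and *Ifng* was -1.37 and *Il2* 1.68 in wild-type spleen. That reversal of *Il2* follows from its level with Mock, which was 9.51-fold lower in TLR7-/- than in wild-type spleen. At 3-fold, *Il12a* (-1.27) and *Il2* (-1.57) in wild type and *Ifng* (1.20) in IFNAR-/- spleen no longer counted, and at 1.5-fold the *Ifng* to *Il12a* ratio in IFNAR-/- spleen (0.90) did. The cause of the other changes was not tested.

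Counts of plate genes moved too. In TLR7-/- spleen the 4 higher genes became 7 with *Hsp90ab1* alone, 10 at 1.5-fold and 1 at 3-fold, and the 3 lower became 6 at 1.5-fold, 1 at 3-fold and 1 without the first 4 wells. In IFNAR-/- spleen the 45 higher became 23 after centring, and the 2 lower became 1 with *Hsp90ab1* alone, at 3-fold, without capped genes or without the first 4 wells, 5 with 5 housekeeping genes or at 1.5-fold, and 9 after centring. In wild type the 32 higher became 21 at 3-fold, and the 11 lower became 5 with *Hsp90ab1* alone, 17 with 5 housekeeping genes and 2 at 3-fold.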

Other observations

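The Ct values that the caps imply (delta-Ct plus 35 minus the cap), which are inferred and no direct readings, place *Ifng* at cycle 28.4 with R848 and 28.7 with Mock in TLR7-/- spleen, at 29.2 and 32.9 in IFNAR-/- spleen, and at most at 28.5 with R848 and at 32.4 with Mock in wild-type spleen. *Il12a* was placed at 27.4 and 27.9, at 28.8 and 31.6, and at most at 28.45 and at 30.7 in the same columns. *Il2* was placed at 33.8 and 34.1 in TLR7-/- spleen and at most at 30.85 with R848 and at 32.8 with Mock in wild-type spleen. With R848 the 3 columns of *Ifng* thus lay within 0.8 cycles if the wild-type limit is taken as its value.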
